A study of Sus scrofa with 6 samples.

Results

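EGR1, EGR2, IER2, IER3, IER5, DUSP1, KLF2, KLF6, BTG1 and NR4A1 are immediate early response genes outside the AP-1 (FOS and JUN) family. They were followed in pig 4-cell embryos cultured at 41.5 °C or 38.5 °C. Members were taken by gene symbol from the deposited expression table. The list was chosen by name with measured values of this same comparison in view, so the differences between temperatures given below are descriptions and support nothing by a test. Of the 10 genes listed, 9 had a row among the 30376 genes of the table, and NR4A1 was not analysed here.

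Each group had 3 libraries of poly(A) RNA. In the high-temperature group embryos were kept at 41.5 °C for 4 days (the genotype label reads HT), and in the control group at 38.5 °C for the same time (genotype label WT). Both groups began from oocytes activated by direct-current pulses, with no sperm mentioned, and both were kept in PZM-5 medium with albumin under mineral oil. The labels state that about 300 samples at the 4-cell stage were lysed, without saying how they were divided among libraries or whether the libraries came from separate cultures, so the spread between libraries may be technical.

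Immediate early genes are transcribed within minutes of a stimulus without new protein synthesis, largely through MAP kinases acting on the transcription factors SRF, ELK1 and CREB. Their transcripts are short-lived and many of their products switch the response off again. They encode transcription factors (the EGR, KLF and NR4A families), signalling brakes such as the phosphatase DUSP1, and regulators such as those of the IER group.

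Total counts per library were 28114005 to 28892695 reads at high temperature and 28869484 to 30079385 in controls. Genes with at least 1 read numbered 20537 to 20838 at high temperature and 19875 to 20428 in controls, without overlap, and the TMM factor was 1.0048 to 1.0888 at high temperature and 0.8648 (library 1), 0.9996 and 1.0444 in controls. All 14 oocyte and early embryo markers with a row had reads, and their summed level was 5285 to 7955 CPM (read counts scaled for library size with TMM factors) at high temperature and 6580 to 8152 CPM in controls. The 22 rows of cumulus and granulosa markers summed to 110.9 to 132 CPM at high temperature and 112 to 156 CPM in controls (exact permutation test, two-sided p = 0.4), with FSHR, INHA, AMH, CYP11A1 and FOXL2 at 0 reads in every library. Some other markers of that list had reads in every library. KITLG, the largest part of each sum, was at 64.0 to 88.3 CPM at high temperature and 70.9 to 111 CPM in controls. PGR was at 8.90 to 11.7 CPM at high temperature and 10.7 to 11.5 CPM in controls. Others had reads in only some libraries, such as GJA1 with 0 in every heated library and 8, 8 and 2 in controls, too few to be tested. Of the 12 tested rows of that list, 2 (SERPINE2 and FST) had heated libraries wholly above the controls in CPM, beside 3.66% of all genes. None of the 12 lay wholly below, beside 4.05% of all genes. The 12 stromal and blood markers summed to 11.5 to 14.4 CPM at high temperature and 12.4 to 14.8 CPM in controls (exact permutation test, two-sided p = 0.3), where 3 against 3 libraries allow no p below 0.1. Mitochondrial mRNAs took 23.8% to 26.7% of reads at high temperature and 21.0% to 23.6% in controls. The part of these differences in the values below was not tested. In bulk RNA from pooled embryos, fewer cells making a transcript and less of it per cell cannot be told apart.

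The genes spanned a wide range of abundance, and the order below the most abundant 3 varied between libraries. By TPM (the deposited values, which are scaled for library size and gene length), BTG1 was highest with a median of 167 over the 6 libraries, and DUSP1 was next with a median of 41.5. The mean of BTG1, 177 TPM, was above that of 97.8% of all genes with a read. The 3 genes from BTG1 down to IER3 were in this order in every library, and the ranges of BTG1, DUSP1 and IER3 did not overlap. IER3 had a median of 3.67 TPM, EGR1 of 1.19, IER5 of 0.984 and IER2 of 0.786. EGR2 (0.411), KLF6 (0.229) and KLF2 (0.0286) were lowest, and from IER3 down each gene's range overlapped that of the next. BTG1 and DUSP1 together held 93.7% to 96.9% of the reads of the 9 genes at high temperature and 95.4% to 97.3% in controls. The genes are compact, with a median span of 2854 bases against 19162.5 bases over all 20674 protein-coding genes.

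DUSP1 encodes a nuclear phosphatase that removes the activating phosphates from MAP kinases and so ends the signal that induces it. It lies on chromosome 16 (51457924 to 51461095, Sscrofa11.1) and overlaps no other counted gene. Its level was 115.8, 77.3 and 62.0 CPM in the high-temperature libraries and 77.9, 60.2 and 42.9 CPM in the controls. The highest library was heated and the lowest was a control, and the groups overlapped in CPM. The means were 85.0 ± 27.7 CPM at high temperature and 60.3 ± 17.5 CPM in controls (SD, n = 3 each), and the fitted level was 1.41-fold higher at high temperature, with a log2 fold change of 0.49 (standard error 0.31, 95% interval -0.21 to 1.20). On the TPM scale the ranges were apart, at 71.5, 48.1 and 42.3 TPM at high temperature and 40.8, 37.9 and 28.3 TPM in controls.

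BTG1 encodes an antiproliferative adaptor that binds the CAF1 deadenylases of the CCR4-NOT complex, which shortens poly(A) tails. It lies on chromosome 5 (90815194 to 90817936), wholly within the span of the long noncoding RNA LOC106510428. Its level was 323, 207 and 179 CPM at high temperature and 312, 241 and 191 CPM in controls. The groups covered nearly the same range, with means of 237 ± 76.2 CPM at high temperature and 248 ± 60.7 CPM in controls (SD, n = 3 each). The log2 fold change was -0.07 (standard error 0.28, interval -0.72 to 0.59), the only interval of the 8 tested genes to lie wholly below a 2-fold rise. LOC106510428 had 149 to 199 reads per library at high temperature and 95 to 229 in controls, few beside the 5487 to 9445 reads of BTG1.

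**Figure D1:**
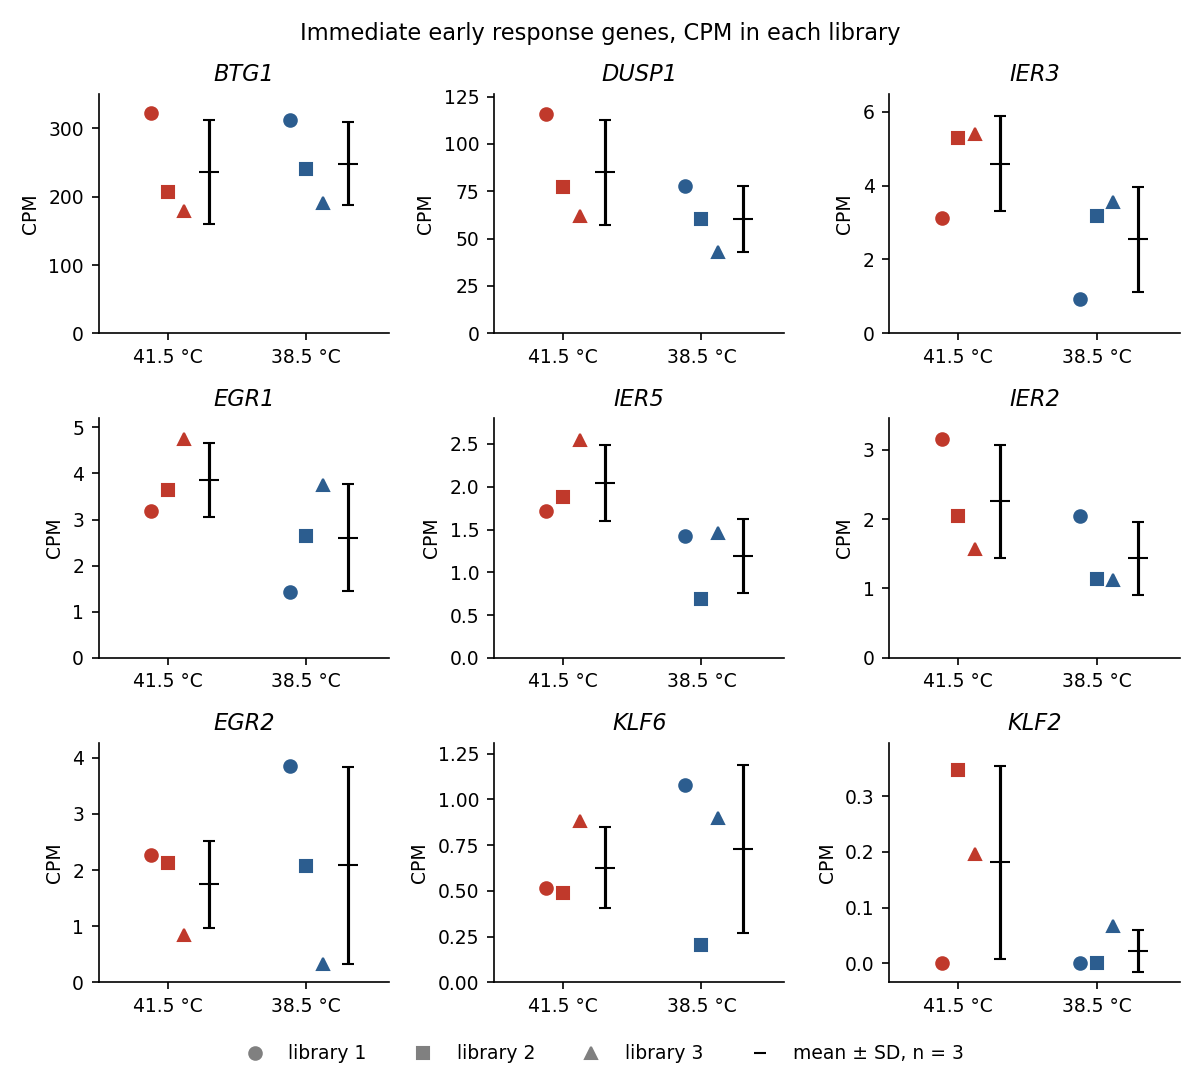
CPM of each of the 9 genes in every library, with 41.5 °C on the left and 38.5 °C on the right of each panel, symbols for the library number and bars for the mean ± SD (n = 3). Only IER5 has its 3 heated libraries above all 3 controls, and in BTG1, DUSP1, IER2 and EGR2 library 1 is the highest of its group.

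DUSP1 and BTG1 varied together across libraries, and their ratio within a library differed little among libraries of a group. There were 0.358, 0.373 and 0.346 DUSP1 reads per BTG1 read at high temperature and 0.2495, 0.25 and 0.224 in controls. The ratios of the groups did not overlap, and neither did the exact 95% binomial intervals, which ran from 0.328 to 0.391 over the heated libraries and from 0.211 to 0.263 over the controls and cover counting error only. The mean ratio was 0.359 ± 0.0136 at high temperature and 0.241 ± 0.0149 in controls (SD, n = 3 each), 1.49-fold higher. This ratio needs no scaling between libraries, but it was singled out after its values were seen. Of the 15500 other tested genes with reads in every library, 3.06% also had a ratio to BTG1 that was higher in all 3 heated libraries than in any control. Among the 28 pairs of the 8 tested genes, 2 (7.14%) had ratios that were apart between the groups in either direction, DUSP1 to BTG1 and IER2 to BTG1. The share over all pairs of genes was not computed, so this count has no background beside it.

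**Figure D2:**
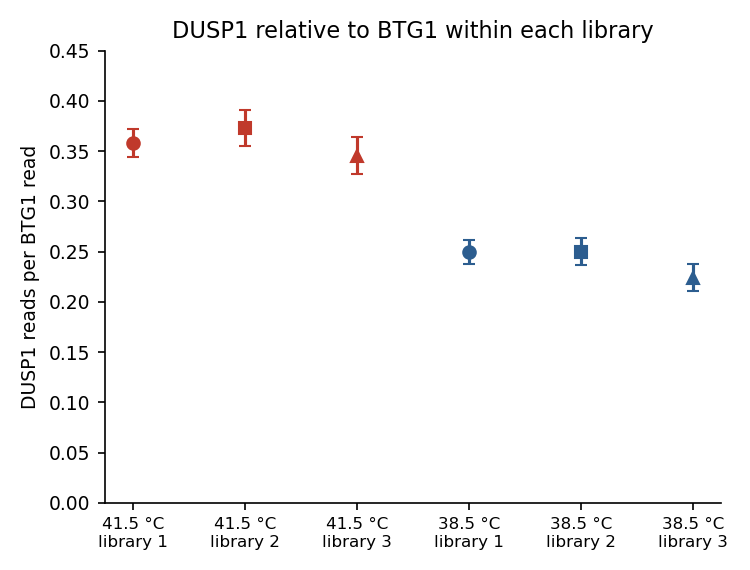
DUSP1 reads per BTG1 read in each library, with exact 95% binomial intervals for counting error; heated libraries are on the left. The heated libraries lie at 0.346 to 0.373 and the controls at 0.224 to 0.25.

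EGR1, a zinc finger factor of the early growth response family and a classical target of SRF and ELK1, lies on chromosome 2 (140440829 to 140445302). It was at 3.18, 3.65 and 4.74 CPM at high temperature and 1.42, 2.65 and 3.75 CPM in controls. The lowest 2 values of all were controls, while control library 3 was above 2 of the heated libraries. The means were 3.86 ± 0.80 CPM at high temperature and 2.61 ± 1.16 CPM in controls (SD, n = 3 each), with a log2 fold change of 0.56 (standard error 0.37).

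EGR2, a related factor known for hindbrain patterning and myelination, lies on chromosome 14 (66280665 to 66291308, minus strand). It was at 2.26, 2.12 and 0.850 CPM at high temperature and 3.85, 2.07 and 0.332 CPM in controls. Both the highest and the lowest of the 6 libraries were controls. The means were 1.74 ± 0.776 CPM at high temperature and 2.08 ± 1.76 CPM in controls (SD, n = 3 each), and the log2 fold change of -0.25 had an interval of -1.94 to 1.44. The last 1300 bases of the EGR2 span are shared with ADO, an aminoethanethiol dioxygenase gene on the opposite strand. ADO had 247, 180 and 95 reads at high temperature and 340, 172 and 78 in controls, the same order of libraries within each group as EGR2, which had 66, 61 and 26 reads at high temperature and 100, 60 and 10 in controls. Over the 6 libraries the log2 CPM of the 2 genes had r = 0.95. The library kit does not mark strand, so reads in the shared stretch cannot be told apart and the level of EGR2 is uncertain. The summed counts gave a log2 fold change of -0.27 (95% interval -1.66 to 1.12).

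The Krüppel-like factors KLF6 and KLF2, which bind GC-rich promoters, were near the lower limit of detection. KLF6 (chromosome 10, 66488445 to 66497830) was at 0.513, 0.486 and 0.883 CPM at high temperature and 1.08, 0.207 and 0.896 CPM in controls, that is 6 to 28 reads per library. Control libraries were both the highest and the lowest, and the log2 fold change was -0.20 (interval -1.60 to 1.20). KLF2 (chromosome 2, 61270733 to 61273037) had 0, 10 and 6 reads at high temperature and 0, 0 and 2 reads in controls. It failed the filter on low counts and was not tested. Its reads came to 16 at high temperature and 2 in controls, a ratio of 7.69 with an exact interval of 1.81 to 68.9 that covers counting error only, and heated library 1 had none.

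The IER genes are induced by growth factors and stress and encode regulators of transcription and cell survival. IER5, whose product has been linked in human cells to heat shock factor 1, lies on chromosome 9 (122633781 to 122635950). It was at 1.71, 1.88 and 2.55 CPM at high temperature and 1.42, 0.690 and 1.46 CPM in controls. Every heated library was above every control, at 50 to 78 reads in heated libraries and 20 to 44 in controls. The means were 2.05 ± 0.445 CPM at high temperature and 1.19 ± 0.435 CPM in controls (SD, n = 3 each), 1.72-fold higher at high temperature, with a log2 fold change of 0.78 (standard error 0.37, interval -0.07 to 1.63).

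IER2, a nuclear regulator, lies on chromosome 2 (65909638 to 65912491). It was at 3.15, 2.05 and 1.57 CPM at high temperature and 2.04, 1.14 and 1.13 CPM in controls. Heated library 3 was below control library 1, and the other 2 heated libraries were above every control. The log2 fold change was 0.65 (standard error 0.38), and the ranges were apart in TPM.

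IER3, a stress-induced protein with a role in apoptosis and ERK signalling, lies on chromosome 7 (23265560 to 23266905) and is the shortest of the genes. It was at 3.11, 5.28 and 5.40 CPM at high temperature and 0.923, 3.17 and 3.55 CPM in controls. The 2 highest libraries were heated and the lowest was a control, with heated library 1 below 2 of the controls. Its log2 fold change was 0.85, with an interval of -0.26 to 1.95, and 0.45 without control library 1.

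Taken over the 8 tested genes, 5 had a log2 fold change above 0 and 3 below, with a median of 0.53 against -0.02 over all 16056 genes tested. Of all genes tested, 47.5% lay above 0. No member was called at an adjusted p below 0.05 by edgeR's quasi-likelihood test or by DESeq2, beside 0% and 0.0312% of all genes, and none had an unadjusted edgeR p below 0.05, beside 1.85%. Every one of the 8 intervals held 0, which follows from those unadjusted p-values, and lay below a 4-fold rise. By CPM 1 gene (IER5) had its heated libraries wholly above the controls, beside 3.66% of all genes, and 0 had them wholly below, beside 4.05%. By TPM there were 3 such genes on the higher side (IER5, DUSP1 and IER2), beside 4.96%. Without high-temperature library 1 the median was 0.27, and without control library 1 all 8 genes were above 0. With library totals alone, 6 were above 0, but the median over all genes tested was also higher there, at 0.08. No share of all genes above 0 is given for that setting, here or for the lists below.

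**Figure D3:**
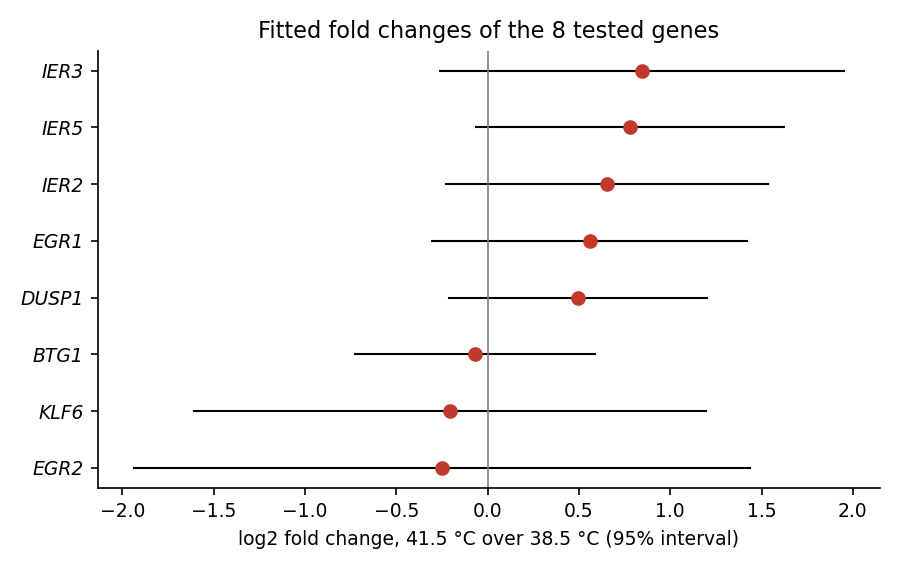
Log2 fold change, 41.5 °C over 38.5 °C, of the 8 tested genes with 95% intervals from the fit across all genes. Points of 5 genes lie between 0.49 and 0.85, those of BTG1, KLF6 and EGR2 between -0.25 and -0.07, and every interval crosses 0.

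Within each temperature the genes differed between libraries in opposite ways. BTG1, DUSP1, IER2 and EGR2 were highest in library 1 of both groups, and EGR1 and IER3 were lowest there. The deviation of EGR1 from its group mean was -0.25 and -0.74 (log2 CPM) in heated and control library 1 and 0.31 and 0.61 in heated and control library 3, while those of DUSP1 were 0.49 and 0.41 in library 1 and -0.41 and -0.45 in library 3. Deviations of DUSP1 and BTG1 had r = 0.99 over the 6 libraries, and those of EGR1 and EGR2, members of the same family, had r = -0.92. The part of reads shared with ADO in the deviations of EGR2, here and below, was not tested. IER5 and KLF6 followed neither set and deviated together (r = 0.98). All of these points share their libraries, 6 in number, and the coefficients are descriptions.

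**Figure D4:**
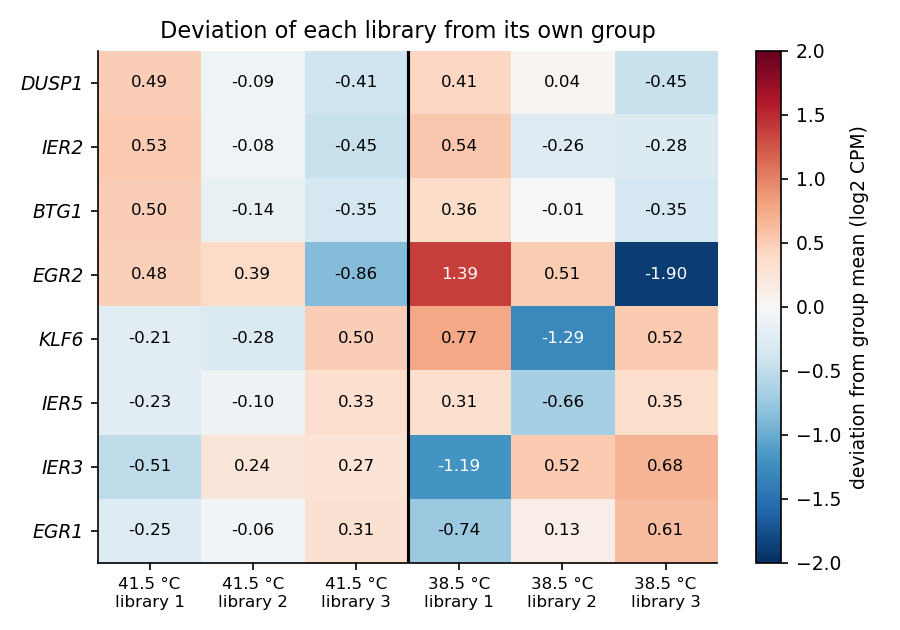
Deviation of each library from the mean of its own temperature group, in log2 CPM, for the 8 tested genes, with heated libraries left of the line. DUSP1, IER2, BTG1 and EGR2 are above their mean in library 1 and below it in library 3 of both groups, and EGR1 and IER3 are the reverse.

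The same division ran through the whole transcriptome. The main axis of deviations within groups held 60.7% of their variance over 16056 genes, with libraries 1 at 0.385 (heated) and 0.6 (control) and libraries 3 at -0.463 (heated) and -0.514 (control). Against this axis r was 0.95 for DUSP1, 0.93 for IER2, 0.92 for BTG1, 0.90 for EGR2, -0.89 for IER3 and -0.97 for EGR1, and it was -0.20 for IER5 and -0.02 for KLF6. So 6 of 8 genes had an r of at least 0.8 in size, beside 50.1% of all tested genes. The summed oocyte markers were lowest in library 1 of both groups, at 5285 CPM (heated) and 6580 CPM (control), and highest in library 3, at 7955 CPM (heated) and 8152 CPM (control). BTG4, the largest part of each sum, was at 2062, 3548 and 4759 CPM in heated libraries and 2590, 4009 and 4701 CPM in controls. DPPA3, the next largest, was at 1344, 1522 and 1176 CPM in heated libraries and 2423, 1704 and 1395 CPM in controls. The order of the sums was therefore not that of every marker. The part of the oocyte markers in the values of each gene was not tested.

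By its counts, in which reads shared with ADO cannot be told apart, EGR2 was also the most variable of the genes for its abundance. Its biological coefficient of variation was 0.614, and its dispersion was above that of 99.0% of the 1000 tested genes nearest in mean CPM. The coefficient was 0.418 for IER3 (89.2%) and 0.485 for KLF6 (81.1%), and that of IER5, 0.310, was near the middle (48.0%). For the abundant BTG1 and DUSP1 it was 0.284 and 0.296 (68.0% and 76.3%).

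In the BTG and KLF families other members were the most abundant, while DUSP1 and EGR1 were the highest of their listed families. IER3 was the highest of the listed genes with an IER name. Among BTG and TOB proteins, BTG4, the oocyte adaptor for maternal mRNA deadenylation, had a median of 4491 TPM (it overlaps 2 other counted genes) and BTG3 of 145 TPM, beside 167 for BTG1 and 8.02 for BTG2. Among Krüppel-like factors, KLF4 had a median of 160.1 TPM, KLF10 of 72.2, KLF3 of 21.1 and KLF17 of 16.9, all far above KLF6 and KLF2. DUSP1 was the highest of the 10 MAP kinase phosphatases listed, with DUSP5 next at 6.52 TPM and DUSP2, DUSP8 and DUSP9 at a median of 0. EGR3 and EGR4 had at most 7 reads in any library. NR4A2 and NR4A3, receptors of the family of NR4A1, had medians of 1.28 and 0.342 TPM. Of 26 tested relatives 13 were above and 13 below 0, with 0 called, beside 0% of all genes. When counts were scaled by library totals alone, 21 were above 0. KLF16, which had the smallest p of the list, was at 2.60 ± 0.306 CPM at high temperature and 1.56 ± 0.385 CPM in controls, and overlaps another counted gene. It was the 1 gene of the 26 with heated libraries wholly above the controls, beside 3.66% of all genes. NR4A3 was at 1.10 ± 0.468 CPM at high temperature and 1.81 ± 0.523 CPM in controls (SD, n = 3 each).

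Regulators upstream of the response had 0 called genes in a test that called 0% of all genes, so this does not set them apart. Of 24 tested kinases and transcription factors 12 were above and 12 below 0 (median -0.02), and 18 were above 0 with library totals alone. The most abundant by CPM were ATF1, a CREB relative, at 210 ± 76.9 CPM at high temperature and 268 ± 116 CPM in controls, the kinase MAPK8 (JNK1) at 134 ± 19.9 CPM at high temperature and 139.5 ± 20.0 CPM in controls, and RPS6KA3, an ERK-activated kinase, at 114 ± 43.3 CPM at high temperature and 106 ± 50.3 CPM in controls (SD, n = 3 each). ELK1, the ETS factor that partners SRF at EGR1, had 45, 26 and 38 reads at high temperature and 9, 16 and 26 reads in controls. Its level was 1.23 ± 0.319 CPM at high temperature and 0.587 ± 0.260 CPM in controls (SD, n = 3 each), without overlap, with a log2 fold change of 1.05 (standard error 0.43, edgeR adjusted p = 0.999923). Of the 24 genes, 1 had heated libraries wholly above the controls, beside 3.66% of all genes. MAPK7 (ERK5) was at 7.71 ± 2.08 CPM at high temperature and 5.87 ± 1.53 CPM in controls, and overlaps MFAP4.

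Brakes on the response likewise had 0 called, beside 0% of all genes, with 11 of 17 above 0 (13 with library totals alone). Their median was 0.07. HNRNPD, which binds AU-rich mRNAs, was at 97.3 ± 16.6 CPM at high temperature and 118 ± 20.9 CPM in controls. SPRY1, an inhibitor of receptor tyrosine kinase signalling, was at 100.2 ± 23.1 CPM at high temperature and 110.4 ± 6.28 CPM in controls, and NAB1, a corepressor of the EGR factors, at 77.3 ± 12.8 CPM at high temperature and 75.6 ± 8.94 CPM in controls (SD, n = 3 each). These 3 genes each overlap another counted gene. SPRY2 was at 12.6 ± 1.97 CPM at high temperature and 18.0 ± 5.17 CPM in controls and KHSRP, an mRNA decay factor, at 14.5 ± 3.05 CPM at high temperature and 10.9 ± 2.53 CPM in controls.

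Of the 8 CCR4-NOT subunits and other partners of BTG1, 2 were above 0 and 6 below, with 0 called, beside 0% of all genes. By CPM 1 of the 8 had heated libraries wholly above the controls, beside 3.66% of all genes, and 0 wholly below, beside 4.05%. Without control library 1, and likewise without high-temperature library 3, 4 were above 0, and with library totals alone 5 were. CNOT7, the deadenylase bound by BTG1, was at 659 ± 25.3 CPM at high temperature and 672 ± 19.1 CPM in controls, CNOT6L at 93.0 ± 18.2 CPM at high temperature and 96.1 ± 15.1 CPM in controls, and CNOT2 at 78.6 ± 24.4 CPM at high temperature and 93.6 ± 41.5 CPM in controls (SD, n = 3 each). PRMT1, a methyltransferase that BTG1 binds, was at 6.20 ± 1.36 CPM at high temperature and 7.41 ± 0.459 CPM in controls, and CNOT8 at 40.6 ± 11.3 CPM at high temperature and 50.3 ± 15.9 CPM in controls. CNOT7, CNOT6L and CNOT8 each overlap another counted gene (VPS37A, MRPL1 and GEMIN5).

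Further immediate early genes gave 17 of 28 above 0 with a median of 0.11 and 0 called, beside 0% of all genes. Of the 28, 10 were above 0 without high-temperature library 1 and 23 with library totals alone. Some of them, such as KLF4 and DUSP5, are also in the lists of relatives or brakes. KLF4 was the most abundant by CPM, at 408 ± 199.7 CPM at high temperature and 433 ± 239.7 CPM in controls, and ID3, an inhibitor of helix-loop-helix factors, was at 364 ± 123 CPM at high temperature and 313 ± 185 CPM in controls. KLF10 was at 175 ± 61.6 CPM at high temperature and 180.1 ± 65.2 CPM in controls (SD, n = 3 each). ID1 was at 12.6 ± 6.32 CPM at high temperature and 6.42 ± 1.55 CPM in controls, and GADD45A, a growth arrest gene, at 10.3 ± 2.18 CPM at high temperature and 7.19 ± 1.30 CPM in controls, where the groups did not overlap. Of these 28 genes, 2 had heated libraries wholly above the controls, beside 3.66% of all genes, and 0 wholly below, beside 4.05%. Among the AP-1 genes 6 of 7 tested were above 0 (7 with library totals alone). Their median was 0.50, with 0 called, beside 0% of all genes. JUNB was at 0.589 ± 0.154 CPM at high temperature and 0.213 ± 0.0678 CPM in controls, and JUN at 2.06 ± 0.485 CPM at high temperature and 1.25 ± 0.589 CPM in controls. These were the 2 of the 7 with heated libraries wholly above the controls, beside 3.66% of all genes. JUNB had only 14, 22 and 16 reads at high temperature and 7, 4 and 7 in controls. ATF3 was at 3.41 ± 1.46 CPM at high temperature and 2.89 ± 1.21 CPM in controls and FOSL2 at 2.70 ± 1.04 CPM at high temperature and 1.82 ± 0.187 CPM in controls.

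**Figure D5:**
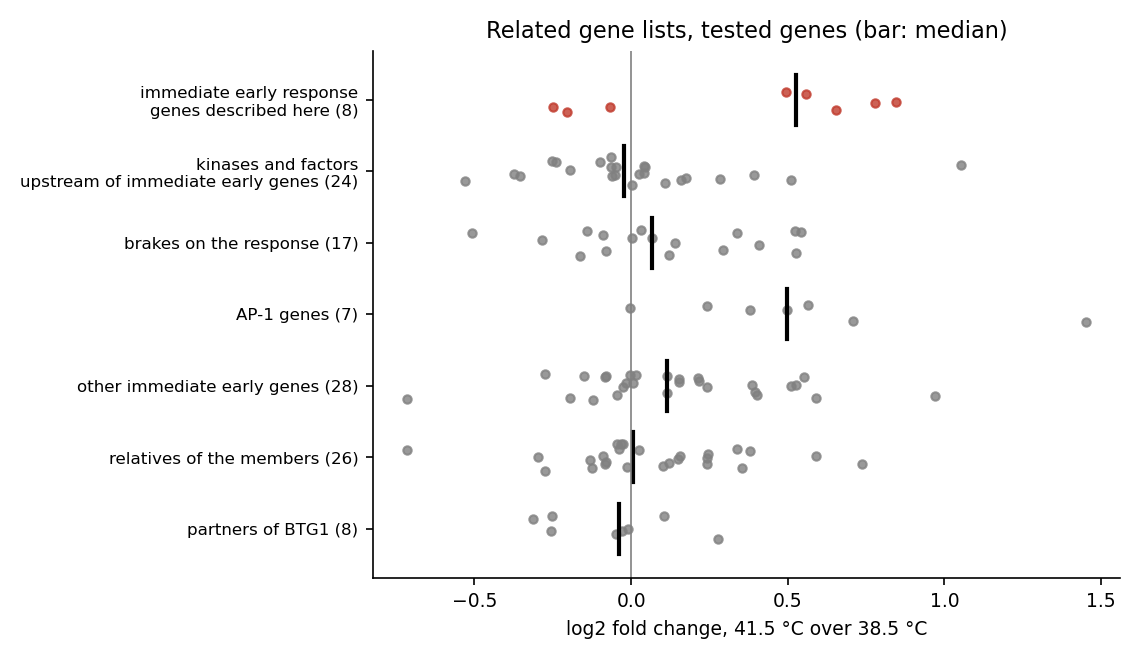
Log2 fold change, 41.5 °C over 38.5 °C, of every tested gene in the 7 sets named at the left, with the number tested in brackets and a bar at the median. The sets share genes, such as KLF4, KLF10 and DUSP5, and are not independent. Medians are 0.53 for the genes described here, 0.50 for AP-1 genes and between -0.04 and 0.11 for the other lists. In each set 0 genes were called, beside 0% of all genes tested.

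The genes whose pattern over the 6 libraries was most like each member were found by the correlation of log2 CPM. They included SPDYC for EGR1 (r = 0.997), CCL16 (0.993) and LOC100514657 (0.992) for EGR2, TUFM and LOC110261084 for IER2 (0.991 each), and TBXA2R (0.999) and LOC100513542 (0.998) for IER3. For IER5 they were LOC110256389 (0.995) and NINJ1 (0.993), for DUSP1 ID4 (0.997) and FAM84A (0.992), for KLF6 LOC110256822 (0.998) and LOC106504821 (0.988), and for BTG1 PPP2R5E (0.994) and LOC100738859 (0.993). Of 16056 genes, 281 reached r = 0.95 with EGR1 and 266 with BTG1. There were 7 with IER5 and 12 with KLF6, the genes that did not follow the main axis.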

How the data were processed

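Poly(A) RNA of 6 libraries was analysed, 3 per temperature, grouped by their titles. The deposited counts are whole numbers of reads for each gene, not normalized, per the file headers. FPKM and TPM values were computed by the authors, per the file headers, and coverage (mean read depth per base, a signal not scaled for library size) stands in the deposited table of each library. StringTie 2.1.3b, HISAT2 2.1.0, HISAT, Trimmomatic 0.38, Bowtie2 and the build Sscrofa11.1 are named, without roles, per the submitters' processing notes. How reads shared by overlapping genes were counted is not stated in these sources. Series columns were matched to libraries by their deposited FPKM, with at least 99.4% of 30376 genes equal within 1e-05 to the library's own table and at most 27.9% to any other.

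Counts were fitted with edgeR 4.0.16 in R 4.3.3 (quasi-likelihood test, TMM scaling, default filter leaving 16056 genes, group as the single term, Benjamini-Hochberg adjustment at 0.05), and 24 genes listed by ID without a symbol were kept. DESeq2 1.42.0, and limma 3.58.1 on log2(value + 1) and log2(FPKM + 0.1), were alternatives, beside other scalings, no filter, a replicate block, libraries left out and sums with overlapping genes. The fit was also run on simulated counts, drawn without the shared axis of deviations, so that run cannot show how it handles such an axis. Marker sums were compared with exact permutation tests. Positions and gene spans are those of RefSeq for Sscrofa11.1. Standard errors and 95% intervals of fold changes were computed back from the fold change and its unadjusted edgeR p. Intervals from reads cover counting error only. Named genes were the members, genes whose spans overlap them, the 2 genes most like each, and of each list the called genes or else the 3 most abundant by CPM and the 2 with the smallest p. A gene that this rule names is not reported here. The members and lists were chosen with earlier results of these data known.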

Additional observations from a re-analysis of the deposited data

How the results depend on the processing

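In all 18 alternatives EGR1, IER2, IER3, IER5 and DUSP1 had a log2 fold change above 0, with lowest values of 0.27 for EGR1 and 0.45 for IER3 (without control library 1), 0.28 for IER2 and 0.36 for IER5 (log2(FPKM + 1)) and 0.21 for DUSP1 (without high-temperature library 1). EGR2 was above 0 in 5 of them, KLF6 in 3 and BTG1 in 8. All alternatives reuse the same 6 libraries or a part of them, and every main interval held 0. No direction is therefore taken as shown for any of the 8 genes. No member was called in any alternative. The number of the 8 genes above 0 was 8 with log2(FPKM + 0.1) and 5 to 8 with 1 library left out. Their median was 0.28 with log2(FPKM + 1), 0.27 to 0.57 with 1 library left out, and 0.43, 0.59 and 0.64 without both libraries 1, 2 or 3, an alternative added after the data were seen. The cause was not tested. With the replicate block, 6 genes were above 0 (median 0.56) and the smallest adjusted p of a member was 0.317, while the calls over all genes were 3 against 0 without it and 5 with DESeq2. The block left 1485 of 16056 genes with an unadjusted edgeR p below 0.05, against 297 without it. Same-numbered libraries deviated together for numbers 1 and 3 (r = 0.52 and 0.59) and not for number 2 (0.0080). Libraries 2 lay near 0 on the main axis (0.0779 heated, -0.0864 control), so that low r cannot decide whether numbers mark pairs. The main fit has no block because the numbers are not said to pair libraries. Depth limits KLF2, KLF6, IER5, IER2 and EGR2, with at most 10, 28, 78, 92 and 100 reads in a library.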
